A study of Mus musculus with 12 samples.

Results

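Sorafenib was compared against its absence in hearts of mice that all received PLX3397. The comparison used 6 of the 12 heart RNA libraries of the study, the 3 titled sorafenib_plx3397 against the 3 titled plx3397, chosen by their titles, and covered all 18897 genes that passed a filter on low counts, of 30199 in the deposited table. Every library came from C57BL/6J mice and was read by poly(A) RNA sequencing. Mice of the sorafenib_plx3397 group (called both agents below) had sorafenib for 28 days and the macrophage clearance agent PLX3397, and mice of the plx3397 group had PLX3397 without sorafenib. A second pair of groups served for comparison, 3 libraries titled sorafenib, with 28 days of the drug and no PLX3397, and 3 titled ctrl, with neither agent. Doses, routes, the duration of PLX3397, sex, age and hour of sampling are not stated in the labels. Nor do the labels say that each library came from its own animal, so p-values measure the spread between these libraries, which may be technical.

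Sorafenib is a cancer drug that blocks RAF kinases and the receptors for VEGF and PDGF, and it can harm the heart. PLX3397, also called pexidartinib, blocks CSF1R, KIT and FLT3, and resident macrophages of the heart need CSF1R signalling to survive. The circadian clock is a loop in which CLOCK or NPAS2 pairs with BMAL1, the product of Arntl, binds E-box sequences and switches on the repressors of the Per, Cry and Nr1d families, while DBP, TEF and HLF carry the rhythm to further genes through D-box sequences. In dividing cells, genes of mitosis are switched on late in the cycle through the cell cycle homology region, a short promoter element at which they are silenced in resting cells.

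The 6 libraries held totals of 61672657 to 62174616 estimated counts with both agents and 61626404 to 63566240 with PLX3397. Levels are given in CPM, estimated counts scaled to a common library size by the TMM method, and the scaling factors did not overlap, at 0.933 to 0.980 with both agents and 1.01 to 1.05 with PLX3397. Their part in the results was not tested. Scaling by the size factors of DESeq2 left 616 genes called against 611. With limma on the deposited FPKM values, which does not use the TMM factors, 74 higher and 545 lower genes were called, against 190 and 421. On the first principal component of all 12 libraries, plx3397 replicate 1 lay at -54.9, next to the ctrl libraries at -72.3 to -55.3, whereas plx3397 replicates 2 and 3 lay at 6.55 and 4.78. The summed level of 30 resident macrophage markers was 403 to 455 CPM in the libraries labelled plx3397 and 416 to 526 CPM in those labelled ctrl. The libraries labelled plx3397 thus did not carry less macrophage marker RNA than those labelled ctrl beyond their spread, which goes against the label of macrophage clearance, and each direction below rests on the labels as given.

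Promoters of 5 genes on which the results turn are shown first, as the 250 bases before and 50 bases after the RefSeq transcription start in build GRCm38.p6, written 5′ to 3′ along the gene. They are shown because clock genes and mitotic genes were the groups, beside macrophage genes, that moved together. In the clock promoters, capitals mark the E-box CACGTG or the D-box TTANGTAA, and in the mitotic promoters they mark TTTGAA or its reverse complement TTCAAA, the letters searched for the cell cycle homology region. Both strands were searched. Top2a and Mki67 are the 2 cell division genes of smallest p, among those that passed the test below, whose window held these letters. Their matches were thus fixed by that choice. The 3 clock genes are among those whose window held an E-box or D-box. The windows of Dbp, Hlf, Cry2, Nr1d2, Arntl, Npas2 and Clock, which also passed the test, held neither. The promoter of Ciart, at chr3:95882179-95882478 on the minus strand, held 3 E-boxes, starting at positions -116, -58 and -44 from the start site. That of Per3, at chr4:151044616-151044915 on the minus strand, held 2 D-boxes at -205 and -158, and that of Tef, at chr15:81802423-81802722 on the plus strand, held 1 E-box at -127. The RefSeq start of Tef lies 252 bases from the end of the deposited gene model. The promoter of Top2a, at chr11:99024140-99024439 on the minus strand, held the mitotic letters at -179 and -23, and that of Mki67, at chr7:135716330-135716629 on the minus strand, at -116 and -98.
Ciart: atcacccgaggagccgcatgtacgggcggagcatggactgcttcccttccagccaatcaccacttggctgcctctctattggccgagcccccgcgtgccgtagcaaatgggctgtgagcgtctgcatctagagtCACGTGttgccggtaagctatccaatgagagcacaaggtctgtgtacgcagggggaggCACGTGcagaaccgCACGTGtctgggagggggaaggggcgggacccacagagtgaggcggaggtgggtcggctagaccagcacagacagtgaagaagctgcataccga
Per3: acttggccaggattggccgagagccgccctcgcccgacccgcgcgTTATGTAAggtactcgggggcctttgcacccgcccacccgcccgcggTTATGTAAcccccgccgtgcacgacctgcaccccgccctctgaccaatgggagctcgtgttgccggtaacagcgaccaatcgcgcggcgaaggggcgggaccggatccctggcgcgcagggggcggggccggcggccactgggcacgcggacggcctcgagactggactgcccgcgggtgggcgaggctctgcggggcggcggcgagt
Tef: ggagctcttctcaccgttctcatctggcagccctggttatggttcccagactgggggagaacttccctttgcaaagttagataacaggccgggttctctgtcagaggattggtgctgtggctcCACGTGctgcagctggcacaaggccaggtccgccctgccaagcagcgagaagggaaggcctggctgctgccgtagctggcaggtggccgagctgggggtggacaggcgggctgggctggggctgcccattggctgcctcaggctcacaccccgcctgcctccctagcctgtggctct
Top2a: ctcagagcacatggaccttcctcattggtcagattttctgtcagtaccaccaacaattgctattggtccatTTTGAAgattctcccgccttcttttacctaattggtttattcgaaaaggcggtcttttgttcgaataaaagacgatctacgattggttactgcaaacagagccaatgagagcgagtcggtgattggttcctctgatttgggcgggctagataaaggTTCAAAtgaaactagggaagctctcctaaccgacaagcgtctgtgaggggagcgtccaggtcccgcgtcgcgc
Mki67: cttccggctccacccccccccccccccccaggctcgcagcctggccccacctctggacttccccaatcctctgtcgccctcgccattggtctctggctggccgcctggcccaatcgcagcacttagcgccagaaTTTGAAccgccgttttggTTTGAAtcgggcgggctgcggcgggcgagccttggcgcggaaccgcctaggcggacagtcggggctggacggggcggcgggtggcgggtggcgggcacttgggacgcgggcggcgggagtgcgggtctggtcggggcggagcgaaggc

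RefSeq gave such a window for 12778 of the 18897 tested genes (67.6%). An E-box stood in 9.69% of these windows and in 9.52% of those of genes that rose. It stood in 5 of the 16 clock genes that had a window, and in 3 of the 11 that passed the test. A D-box stood in 1.49% of all windows and, among the clock genes, in that of Per3. The letters TTTGAA stood in 12.2% of all windows, in 18% of those of genes that fell and in 13 of the 28 cell division genes that had a window. A match describes letters in the window and is not shown to be a bound site.

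With sorafenib added to PLX3397, repressor and output genes of the circadian clock and the xenobiotic enzyme gene Cyp1a1 rose, and markers of resident macrophages and genes of mitosis fell. Genes counted as called had an adjusted p under 0.05 in the quasi-likelihood test of edgeR, adjusted over all 18897 genes. There were 611 of them (3.23%), 190 higher (1.01%) and 421 lower (2.23%). The groups did not overlap in all 190 higher and in 419 of the 421 lower genes, so a lack of overlap adds little to a call. Genes named for their size were chosen among those without overlap. The median log2 fold change was 0.57 among the higher and -0.97 among the lower genes, and at least 2-fold changes numbered 29 higher and 203 lower. Genes that rose had a median level of 6.48 FPKM, a length-scaled level, against 1.71 FPKM for those that fell and 1.47 FPKM for all tested genes. With limma on the deposited FPKM values, 619 genes were called, of which 74 were higher and 545 lower. The Wald test of DESeq2 called 1192 of 17290 genes (6.89%), 451 higher (2.61%) and 741 lower (4.29%). Leaving out a library lowered the count to 177 without sorafenib_plx3397 replicate 1, 391 without replicate 2 and 313 without replicate 3. It lowered the count to 204 without plx3397 replicate 1, 314 without replicate 2 and 358 without replicate 3, and 135 genes were called in each of these 6 fits.

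**Figure D1:**
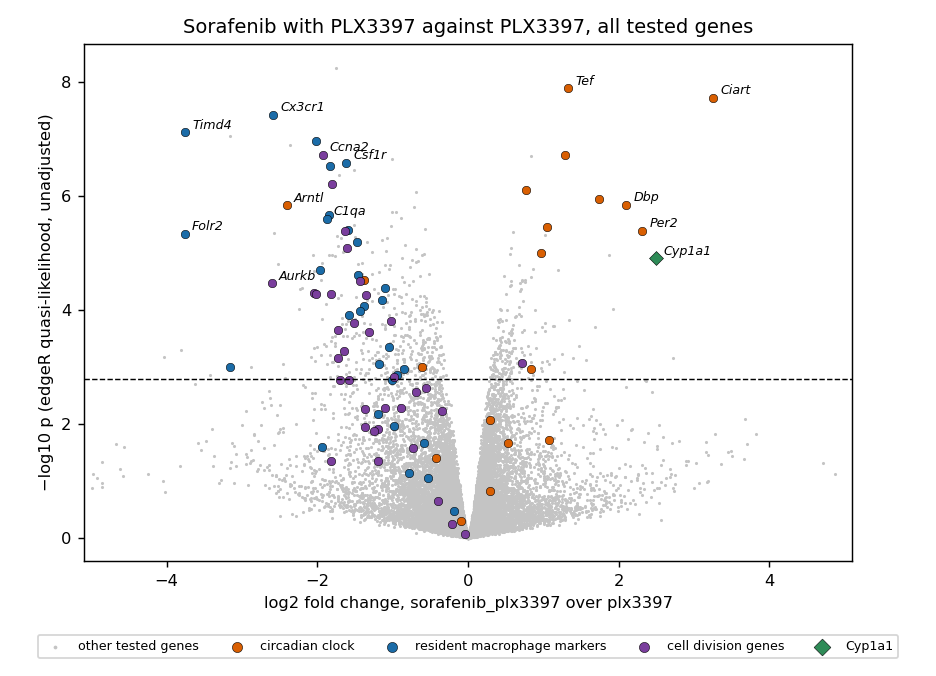
Each point is 1 tested gene, with the log2 fold change of sorafenib_plx3397 over plx3397 on the horizontal axis and the negative log10 of the unadjusted edgeR p on the vertical axis. The dashed line is the p at which the adjusted p reached 0.05, and 72 genes with changes beyond the axis are not drawn. Clock genes lie high on both sides, at up to 3.25 for Ciart, while macrophage markers and cell division genes lie on the left, at down to -3.76 for Folr2 and Timd4.

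Of 19 clock genes, 10 rose (52.6%, against 1.01% of all genes) and 3 fell (15.8%, against 2.23%), with a median of 0.84. Ciart, whose product represses CLOCK and BMAL1, had 10.4, 6.38 and 4.63 CPM with both agents, against 0.631, 0.742 and 0.871 CPM with PLX3397. Each library with both agents was above each PLX3397 library, and the fold change, 3.25 ± 0.29 (log2 ± SE, n = 3 libraries per group, adjusted p = 0.000119), was the largest of the named rises. Per2, a core repressor, had 25.2, 13.7 and 25.3 CPM with both agents, against 2.85, 5.79 and 4.29 CPM with PLX3397. The groups did not overlap (2.31 ± 0.29, adjusted p = 0.00224), although replicate 2 was the lowest of its group with both agents and the highest with PLX3397. Per3, another period gene, had 49.2, 34.8 and 36.4 CPM with both agents, against 11.0, 16.1 and 8.85 CPM with PLX3397 (1.75 ± 0.20, adjusted p = 0.00106). Its lowest library with both agents was above the highest PLX3397 library. Cry2, the cryptochrome repressor, rose by 1.05 on the log2 scale, Bhlhe41 by 0.97, Bhlhe40 by 0.84 and Nr1d2, the gene of the nuclear receptor REV-ERB beta, by 0.77. Those 4 genes did not overlap between the groups. Bhlhe40 was called in 1 of the 6 fits that left out a library, and the other 3 in all 6.

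The output factors moved with the repressors. Dbp, which binds D-boxes and is itself driven by E-boxes, had 154, 114 and 83.6 CPM with both agents, against 26.2, 32.9 and 22.7 CPM with PLX3397 (2.10 ± 0.22, adjusted p = 0.00125). All libraries with both agents exceeded all PLX3397 libraries, and they differed among themselves by more than the PLX3397 libraries did. Tef had 254, 179 and 208 CPM with both agents, against 82.3, 96.4 and 75.9 CPM with PLX3397 (1.33 ± 0.12, adjusted p = 0.000119). Hlf, the third member of that family, had 47.2, 34.6 and 43.4 CPM with both agents, against 14.1, 20.0 and 17.0 CPM with PLX3397 (1.29 ± 0.14, adjusted p = 0.000336). The 3 output factors were called in each of the 6 fits that left out a library. Per1 (1.08 ± 0.38, adjusted p = 0.195), Nr1d1 (0.53 ± 0.20, adjusted p = 0.208) and Cry1 (0.29 ± 0.19, adjusted p = 0.513) did not pass the test. Per1 was at 24.6 CPM in plx3397 replicate 2 and at 9.94 and 9.33 CPM in the other PLX3397 libraries.

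The activators went the other way. Arntl had 1.47, 3.95 and 2.22 CPM with both agents, against 14.2, 10.4 and 15.9 CPM with PLX3397, a change of -2.41 ± 0.29 (adjusted p = 0.00125). Every library with both agents lay below every PLX3397 library. Npas2, which stands in for CLOCK as the partner of BMAL1, had 1.92, 2.02 and 1.69 CPM with both agents, against 5.1, 3.60 and 6.02 CPM with PLX3397 (-1.39 ± 0.23, adjusted p = 0.00596). Clock itself had 25.7, 30.5 and 26.5 CPM with both agents, against 34.7, 40.4 and 51.2 CPM with PLX3397 (-0.61 ± 0.15, adjusted p = 0.0380). Its groups did not overlap, but it was called in 1 of the 6 fits that left out a library, while Arntl and Npas2 were called in all 6. Rora, a nuclear receptor gene that activates Arntl, did not pass (0.29 ± 0.09, adjusted p = 0.129). Clock members called higher numbered 9 to 11, and those called lower 2 to 3, when single libraries were left out, so no library decided the count of higher members. Because the hour of sampling is not stated, a difference in hour between the groups cannot be told apart from one in treatment. This holds for the clock genes and for every other gene reported here.

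**Figure D2:**
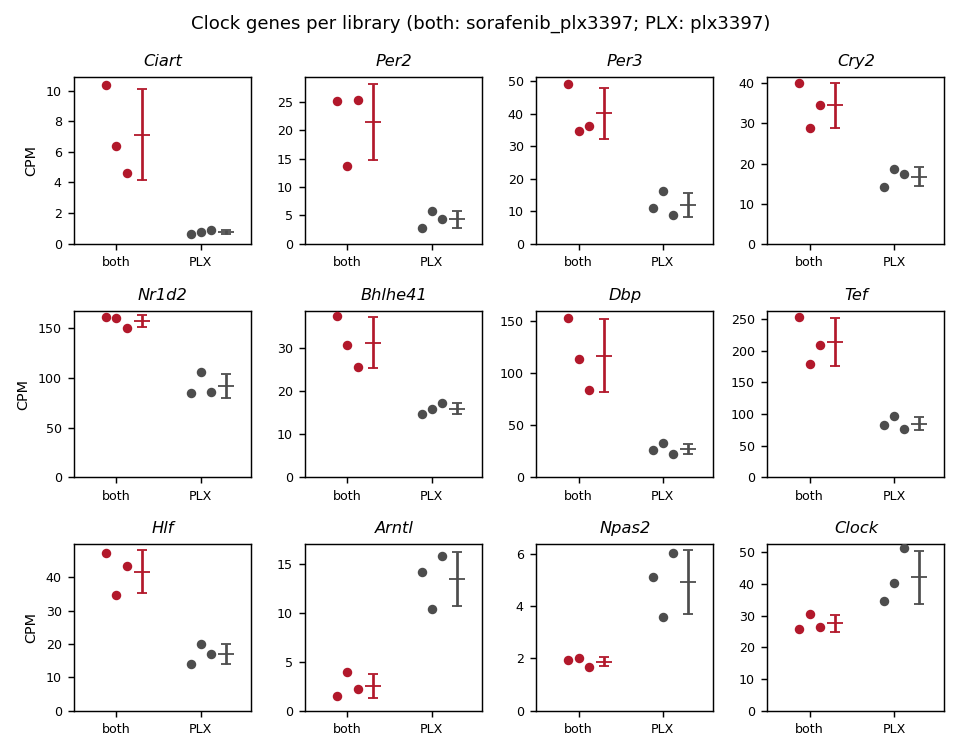
Level in CPM of 12 of the 13 called clock genes (Bhlhe40 is not drawn), with a point for each library and the mean ± SD of 3 libraries beside them, both agents on the left and PLX3397 on the right of each panel. The first 9 genes are higher with both agents, as Dbp at 83.6 to 154 against 22.7 to 32.9 CPM, and the last 3, Arntl, Npas2 and Clock, are lower.

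Cyp1a1 encodes a cytochrome P450 that the aryl hydrocarbon receptor switches on. It had 92.2, 58.6 and 42.2 CPM with both agents, against 9.85, 12.1 and 12.3 CPM with PLX3397 (2.5 ± 0.31, adjusted p = 0.00354). The groups did not overlap, and the call held without any single library. Of 9 genes of the receptor's battery, Cyp1a1 alone was called (against 3.23% of all genes). The receptor gene Ahr (0.42 ± 0.16, adjusted p = 0.198), its repressor Ahrr (0.56 ± 0.19, adjusted p = 0.150), and the targets Cyp1b1 (-0.58 ± 0.62, adjusted p = 0.729), Tiparp (-0.02 ± 0.15, adjusted p = 0.970) and Nqo1 (0.29 ± 0.16, adjusted p = 0.413) did not pass. Ahr and Ahrr were nonetheless higher in each library with both agents than in each PLX3397 library, an arrangement seen in 10.8% of all tested genes.

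Other large rises, named for their size, fell outside the clock. Inmt, which encodes a methyltransferase of small amines, had 28.7, 40 and 47.0 CPM with both agents, against 12.9, 14.9 and 13.7 CPM with PLX3397 (1.48 ± 0.29, adjusted p = 0.0257). The groups were apart, as naming by size required, and the call was kept in 1 of the 6 fits without a library. Mid1ip1, a stimulator of fatty acid synthesis, had 167, 121 and 171 CPM with both agents, against 63.0, 70.0 and 68.2 CPM with PLX3397 (1.19 ± 0.18, adjusted p = 0.00465), and the call held in all 6 fits. Bmp4, a growth factor of the BMP family, had 5.97, 5.21 and 5.86 CPM with both agents, against 2.39, 2.11 and 3.21 CPM with PLX3397 (1.14 ± 0.23, adjusted p = 0.0163). Rhobtb1 (1.14 ± 0.24, adjusted p = 0.0320) and Lonrf1 (1.13 ± 0.23, adjusted p = 0.0159) rose by similar amounts. Bmp4, Rhobtb1 and Lonrf1 were each called in 2 of the 6 fits.

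Resident macrophage markers were the list with the most members that fell. Of 30 markers, 22 fell (73.3%, against 2.23% of all genes) and 0 rose, the median was -1.45, and all 30 had values below 0. Their summed level was 146 to 176 CPM with both agents, against 403 to 455 CPM with PLX3397. In bulk RNA, fewer macrophages and less of these RNAs per macrophage cannot be told apart. Csf1r, the receptor that PLX3397 blocks, had 12, 15.8 and 15.5 CPM with both agents, against 52.4, 38.4 and 41.8 CPM with PLX3397 (-1.62 ± 0.17, adjusted p = 0.000383). The groups lay far apart, and the call held without any single library. The summed level in the libraries labelled ctrl overlapped that in the libraries labelled plx3397, as given above. In the libraries labelled sorafenib it was 192 to 323 CPM, against 416 to 526 CPM in those labelled ctrl.

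Folr2 and Timd4, markers of the long-lived resident macrophages of the heart, had the lowest values of the list. Folr2, a folate receptor, had 0.439, 0.638 and 0.794 CPM with both agents, against 8.72, 8.74 and 7.98 CPM with PLX3397 (-3.76 ± 0.47, adjusted p = 0.00231). Timd4, a receptor for phosphatidylserine on dying cells, had 0.0675, 0.190 and 0.215 CPM with both agents, against 2.01, 2.31 and 2.14 CPM with PLX3397 (-3.76 ± 0.38, adjusted p = 0.000278). In both genes the groups were apart, and the libraries with both agents, at low levels, differed by more in proportion than the PLX3397 libraries did. Cx3cr1, the fractalkine receptor, changed by -2.59 ± 0.25 (adjusted p = 0.000176), Fcrls by -2.02 ± 0.21 (adjusted p = 0.000291) and the haemoglobin scavenger receptor Cd163 by -1.96 ± 0.30 (adjusted p = 0.00463). Lyve1, a hyaluronan receptor carried by the same cells as Folr2 and Timd4, was at 8.38, 11.5 and 13.4 CPM with both agents and at 16.8, 26.5 and 24.0 CPM with PLX3397, and did not pass (-1.01 ± 0.25, adjusted p = 0.0509). Its groups nevertheless did not overlap.

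The complement genes C1qa, C1qb and C1qc encode the chains of C1q and are macrophage products in the heart. C1qa had 7.56, 10.9 and 11.4 CPM with both agents, against 37.3, 40.6 and 31.8 CPM with PLX3397 (-1.88 ± 0.23, adjusted p = 0.00171). C1qc changed by -1.83 ± 0.19 and C1qb by -1.59 ± 0.20, so the 3 chains moved by similar amounts. Cybb, the phagocyte oxidase subunit, had 3.59, 4.12 and 2.48 CPM with both agents, against 15.5, 12 and 9.26 CPM with PLX3397 (-1.85 ± 0.24, adjusted p = 0.00160). The endotoxin co-receptor Cd14 (-1.48), the Fc receptor chain Fcer1g (-1.46), the macrophage transcription factor Spi1 (-1.38), the mannose receptor Mrc1 (-1.14) and the lysosomal membrane protein gene Laptm5 (-1.10) also fell. Of these 5, Cd14, Fcer1g and Laptm5 were called in all 6 fits that left out a library, and Spi1 and Mrc1 in 5.

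Adgre1 and Cd68, shared by most macrophages, had smaller fold changes. Adgre1, the gene of F4/80, had 7.71, 6.42 and 7 CPM with both agents, against 17.8, 15.1 and 15.1 CPM with PLX3397 (-1.18 ± 0.27, adjusted p = 0.0356), and the call was lost in each of the 6 fits without a library. Cd68, a lysosomal glycoprotein gene, was at 9.68, 10 and 10.3 CPM with both agents and at 19.7, 12 and 13.5 CPM with PLX3397, and did not pass (-0.59 ± 0.22, adjusted p = 0.211). Mertk (-0.19), Trem2 (-0.53), Siglec1 (-0.79), Itgam (-0.98), Ms4a7 (-1.19) and Vsig4 (-1.94) did not pass either. In 29 of the 30 markers the groups did not overlap, an arrangement found in 11.5% of all tested genes, and Mertk was the exception. Without sorafenib_plx3397 replicate 1 the count of markers that fell was 13, and without each of the other libraries it was 16 to 18.

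**Figure D3:**
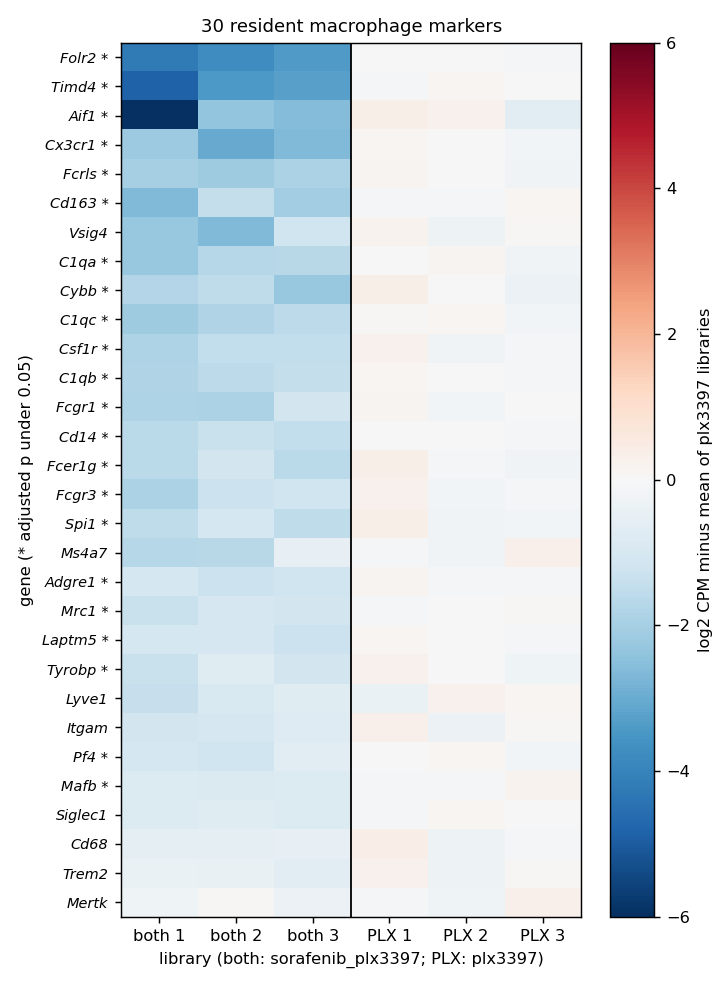
Colour gives log2 CPM of each of 30 resident macrophage markers minus its mean over the plx3397 libraries, with sorafenib_plx3397 replicates in the left columns and plx3397 replicates in the right ones, and an asterisk marks an adjusted p under 0.05. The rows are sorted by fold change, Folr2 and Timd4 (both -3.76) at the top and Mertk (-0.19) at the bottom. The left columns are blue throughout most of the plot.

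Among other falls named for their size were genes known from myeloid cells. Slamf9, of the SLAM receptor family, had 0.911, 0.811 and 0.794 CPM with both agents, against 4.34, 4.84 and 3.79 CPM with PLX3397 (-2.36 ± 0.25, adjusted p = 0.000296). Mgl2, a lectin of macrophages and dendritic cells, had 2.23, 2.52 and 2.75 CPM with both agents, against 9.85, 8.89 and 6.23 CPM with PLX3397 (-1.74 ± 0.25, adjusted p = 0.00239). Both genes kept the groups apart, as naming by size required, and were called in all 6 fits without a library. Ltc4s, the leukotriene C4 synthase gene, changed by -1.96 ± 0.33 (adjusted p = 0.00596), Ms4a6c by -1.80 ± 0.32 (adjusted p = 0.00811) and Tnfaip8l2, a restraint on immune receptor signalling, by -1.77 ± 0.39 (adjusted p = 0.0235), a call kept in 2 of those fits. F13a1, the coagulation factor XIII subunit of macrophages and monocytes, had 10.6, 11.7 and 19.9 CPM with both agents, against 41.1, 46.8 and 51.2 CPM with PLX3397 (-1.72 ± 0.27, adjusted p = 0.00858). It was the 1 called member of 16 monocyte and neutrophil markers (against 3.23% of all genes), whose median was -0.16.

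MHC class II genes, which present peptides to helper T cells, were lower as well. Of 16 dendritic cell and class II genes, 5 fell (against 2.23% of all genes), 0 rose and the median was -1.07, or -0.31 with limma on the log2(FPKM + 0.5) scale. Cd74, the invariant chain, had 25.4, 36.3 and 27.4 CPM with both agents, against 93.8, 87.9 and 52.2 CPM with PLX3397 (-1.39 ± 0.25, adjusted p = 0.0188). H2-Eb1 changed by -1.34 ± 0.22 (adjusted p = 0.00915), H2-Aa by -1.39 ± 0.29 (adjusted p = 0.0323), H2-Ab1 by -1.24 ± 0.29 (adjusted p = 0.0487) and the activation marker Cd83 by -1.15 ± 0.23 (adjusted p = 0.0152). In the class II genes plx3397 replicate 3 was the lowest of its group, at 20.8 CPM for H2-Aa beside 43.2 and 43.6 CPM. The number that fell was 0 without sorafenib_plx3397 replicate 1, 1 without its replicate 3 and 3 without its replicate 2. It was 1 without plx3397 replicate 1, 1 without replicate 2 and 6 without replicate 3. Macrophage markers moved with these genes, at 146 to 176 CPM with both agents against 403 to 455 CPM with PLX3397, and their part was not tested.

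Among 30 cytokine and chemokine genes, 3 fell (against 2.23% of all genes), 0 rose and the median was -0.51. Ccl9, a chemokine for CCR1-bearing cells, had 4.10, 4.88 and 6.24 CPM with both agents, against 15.3, 13.4 and 14.6 CPM with PLX3397 (-1.51 ± 0.17, adjusted p = 0.000443), and its call held in all 6 fits without a library. Tgfb1 (-0.56 ± 0.10, adjusted p = 0.00956) and the interferon-induced chemokine gene Cxcl9 (-1.14 ± 0.27, adjusted p = 0.0338) fell too. The list had 1 call without sorafenib_plx3397 replicate 1 and 1 without plx3397 replicate 1. Of 32 interferon-stimulated genes, all had values below 0 (median -0.42) and 5 fell (against 2.23% of all genes), Oas1a (-1.39), Rtp4 (-0.99), Bst2 (-0.86), Irf7 (-0.71) and Cmpk2 (-0.52). None of the 5 was called in more than 2 of the 6 fits without a library, and the list had 0 calls without plx3397 replicate 1, plx3397 replicate 2, sorafenib_plx3397 replicate 1 or sorafenib_plx3397 replicate 2. H2-D1 (-0.59 ± 0.15, adjusted p = 0.0406) and the immunoproteasome gene Psmb8 (-0.77 ± 0.16, adjusted p = 0.0210) fell among 14 MHC class I and immunoproteasome genes (against 2.23% of all genes). That count was 0 without sorafenib_plx3397 replicate 1, sorafenib_plx3397 replicate 2 or plx3397 replicate 1, and 4 without plx3397 replicate 3.

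Lymphocyte markers had 0 calls among 18 genes and a median of -0.20. With counts divided by 4, 8 of the 18 passed the filter and their median was 0.02. Their summed level was 20.6 to 49.0 CPM with both agents and 27.2 to 48.2 CPM with PLX3397, ranges that overlap. Mast cell markers had 1 call among 6 genes (against 3.23% of all genes), the protease gene Cpa3 (-2.43 ± 0.63, adjusted p = 0.0487), which no fit without a library kept. Erythroid markers, a readout of blood left in the tissue, had 0 calls among 7 genes but values above 0 in all 7, with a median of 0.89. Their summed level was 2398 to 4288 CPM with both agents, against 1604 to 1924 CPM with PLX3397, without overlap, and its part in the other results was not tested.

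Genes of cell division formed the next group that fell. Of 35 genes, 17 fell (48.6%, against 2.23% of all genes), 1 rose (2.86%, against 1.01%) and the median was -1.37, or -0.62 with limma on the log2(FPKM + 0.5) scale, with a summed level of 97.4 to 120 CPM with both agents, against 153 to 219 CPM with PLX3397. Top2a, the topoisomerase that untangles chromosomes in mitosis, had 2.53, 2.36 and 4.32 CPM with both agents, against 12.5, 9.76 and 10 CPM with PLX3397 (-1.81 ± 0.22, adjusted p = 0.000677). Mki67, which coats mitotic chromosomes and marks cycling cells, had 4.30, 3.48 and 4.57 CPM with both agents, against 17.9, 8.72 and 11.6 CPM with PLX3397 (-1.63 ± 0.23, adjusted p = 0.00225). The groups of both genes were apart, and plx3397 replicate 1 was the highest library in each. Ccna2, the cyclin of S phase and early mitosis, had 1.48, 1.40 and 1.84 CPM with both agents, against 7.64, 5.48 and 4.86 CPM with PLX3397 (-1.93 ± 0.21, adjusted p = 0.000336). Aurkb, a kinase of chromosome segregation, had 0.422, 0.0863 and 0.53 CPM with both agents, against 2.51, 1.94 and 1.92 CPM with PLX3397 (-2.61 ± 0.44, adjusted p = 0.00613). Its levels were low, and its groups did not overlap.

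The mitotic transcription factor gene Foxm1 (-2.05), the mitotic kinase gene Cdk1 (-2.02), the checkpoint kinase gene Bub1 (-1.81), the spindle genes Tpx2 (-1.61), Prc1 (-1.43) and Nusap1 (-1.35) and the replication helicase gene Mcm3 (-1.02) also fell. Foxm1, Tpx2, Prc1 and Nusap1 were called in all 6 fits without a library, as were Top2a, Mki67, Ccna2 and Aurkb. By role, 12 of 20 mitosis genes fell, with a median of -1.60. Of 15 genes listed under DNA replication 5 fell, with a median of -0.88 and all 15 values below 0. The 5 of the replication list were Mcm3, Mcm5 (-0.98), E2f1 (-1.51) and, described above as acting in mitosis, Ccna2 and Foxm1. Mcm2 (-0.56), Mcm6 (-0.70) and the sliding clamp gene Pcna (-0.34) did not pass. Cenpf, a kinetochore gene, rose against the rest of its list, at 30.7, 22.8 and 26.4 CPM with both agents and 14.4, 19.0 and 15.2 CPM with PLX3397 (0.72 ± 0.17, adjusted p = 0.0346). Its call held in 2 of the 6 fits without a library. The count that fell was 8 without sorafenib_plx3397 replicate 1, 10 without plx3397 replicate 1 and 13 to 17 without each of the other libraries. Of the 14 called members with a promoter window, 9 held TTTGAA, and the Top2a and Mki67 windows shown above were chosen among these 9. Both counts include Cenpf, which rose and whose window held these letters. Macrophage markers moved with these genes, at 146 to 176 CPM with both agents against 403 to 455 CPM with PLX3397. Whether the dividing cells were macrophages was not tested.

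Some contractile genes of heart muscle rose, by about 2-fold or less. Of 25 contractile and Z-disc genes, 5 rose (against 1.01% of all genes), 0 fell and the median was 0.21, or 0.10 with limma on FPKM. Tcap, which caps titin at the Z-disc, had 1510, 1478 and 1102 CPM with both agents, against 654, 770.2 and 588 CPM with PLX3397 (1.02 ± 0.14, adjusted p = 0.00231). Myom2, which crosslinks myosin at the M-band, had 1148, 859 and 1305 CPM with both agents, against 538, 662 and 619.6 CPM with PLX3397 (0.86 ± 0.14, adjusted p = 0.00456). Both genes kept the groups apart and were called in all 6 fits without a library. Myh7, the slow myosin heavy chain that rises in stressed mouse hearts, had 647, 457 and 684 CPM with both agents, against 307, 419 and 408 CPM with PLX3397 (0.66 ± 0.15, adjusted p = 0.0341). It passed in 1 of the 6 fits without a library. The troponin gene Tnnt2 (0.42 ± 0.09, adjusted p = 0.0219) and the actinin gene Actn2 (0.36 ± 0.08, adjusted p = 0.0297) rose as well. The count of higher members was 2 without sorafenib_plx3397 replicate 1, plx3397 replicate 1 or plx3397 replicate 2, 3 without sorafenib_plx3397 replicate 3 or plx3397 replicate 3, and 2 with limma on FPKM.

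Of 20 calcium handling genes, 1 rose (against 1.01% of all genes) and 1 fell (against 2.23%), with a median of 0.04. The riser was the calcium channel subunit gene Cacnb2 (0.63 ± 0.12, adjusted p = 0.0134), which passed in 4 of the 6 fits without a library. The member that fell was listed as a regulator and is not reported here by name. None of 21 cardiac ion channel genes was called, and their median of 0.11 became -0.02 with limma on FPKM. The median of all tested genes went from -0.003 to -0.066 between these settings. The natriuretic peptide genes, whose products rise when heart muscle is stretched, did not pass. Nppa was at 300.2, 224 and 280.0 CPM with both agents and at 175, 136 and 234 CPM with PLX3397 (0.56 ± 0.74, adjusted p = 0.787). Nppb was at 146, 117 and 146 CPM with both agents and at 175, 124 and 143 CPM with PLX3397 (-0.11 ± 0.46, adjusted p = 0.943). Both genes overlapped between the groups.

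Atrial genes varied widely within the group with both agents. Myl7, the atrial myosin light chain, was at 2.11, 4.49 and 29.4 CPM with both agents and at 39.0, 33.0 and 64.7 CPM with PLX3397 (-1.92 ± 1.31, adjusted p = 0.553). Myl4 was at 4.64, 5.37 and 58.8 CPM with both agents and at 73.8, 58.0 and 95.7 CPM with PLX3397, and Sln, the atrial regulator of the calcium pump, at 1.38, 1.05 and 12.3 CPM with both agents and 14.5, 12.4 and 21.0 CPM with PLX3397. In all 3 genes sorafenib_plx3397 replicates 1 and 2 were low and replicate 3 stood near the PLX3397 libraries. None of the 11 natriuretic and atrial genes was called.

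The study's title concerns PDE2A, an enzyme that breaks down cyclic AMP and cyclic GMP. Its gene Pde2a was at 56.9, 59.8 and 56.2 CPM with both agents and at 68.8, 63.9 and 44.5 CPM with PLX3397 (-0.03 ± 0.13, adjusted p = 0.939). The groups overlapped, with plx3397 replicate 3 the lowest of the 6 libraries, and whole heart RNA does not separate the Pde2a RNA of macrophages from that of other cells. Among 19 phosphodiesterase genes, 1 rose (against 1.01% of all genes) and 0 fell (against 2.23%). That was Pde1c, a calcium-activated phosphodiesterase, at 88.5, 70.2 and 74.4 CPM with both agents against 56.4, 63.9 and 58.3 CPM with PLX3397 (0.38 ± 0.10, adjusted p = 0.0410), which passed in 1 of the 6 fits without a library. The adenylate cyclase gene Adcy6 rose (0.64 ± 0.12, adjusted p = 0.0130) and passed in 4 of those fits. It was the 1 called of 18 adrenergic and cyclic nucleotide genes (against 3.23% of all genes).

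The called genes of the vessel wall and matrix lists were falls of modest size. Of 34 matrix and fibrosis genes, 7 fell (against 2.23% of all genes), 0 rose and the median was -0.33. Sparc, a collagen-binding glycoprotein gene, had 176, 150.0 and 141 CPM with both agents, against 252, 233 and 257 CPM with PLX3397 (-0.67 ± 0.10, adjusted p = 0.00380). Col5a3 had 10.9, 13.6 and 7.46 CPM with both agents, against 21.7, 18.4 and 24.0 CPM with PLX3397 (-1.0 ± 0.17, adjusted p = 0.00716). Both kept the groups apart in all 6 libraries and were called in each fit without a library. Col3a1, a main fibrillar collagen, had 163, 99.8 and 89.3 CPM with both agents, against 202, 204 and 223 CPM with PLX3397 (-0.84 ± 0.17, adjusted p = 0.0203), and passed in 3 of those fits. The fibrillin gene Fbn1 (-0.78), the collagen chaperone gene Serpinh1 (-0.61), the cross-linking enzyme gene Loxl1 (-0.55) and the protease gene Mmp14 (-0.59) fell. Col1a1 (-0.30 ± 0.18, adjusted p = 0.473) and the activated fibroblast gene Postn (-0.49 ± 0.35, adjusted p = 0.568) did not pass, and none of 12 fibroblast markers was called. The count that fell was 4 to 6 without single libraries, and 4 without plx3397 replicate 3, sorafenib_plx3397 replicate 2 or sorafenib_plx3397 replicate 3.

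Of 16 basement membrane genes, 2 fell (against 2.23% of all genes) and 0 rose, with a median of -0.09 and 7 values above 0. The 2 were Col4a1 (-0.84 ± 0.16, adjusted p = 0.0127) and Sparc, which was also counted among the matrix genes. Without plx3397 replicate 3, 1 of the list fell. Of 18 endothelial markers, 5 fell (against 2.23% of all genes) and 0 rose, with a median of -0.07. Kdr, the VEGF receptor that sorafenib blocks, had 85.5, 97.0 and 74.5 CPM with both agents, against 132, 138 and 172 CPM with PLX3397 (-0.78 ± 0.15, adjusted p = 0.0164). Egfl7, Cldn5, Tie1 and Emcn fell by less, at -0.48 to -0.38. Of 15 pericyte and smooth muscle markers, 4 fell (against 2.23% of all genes) and 0 rose. The median was 0.04, and 9 of the 15 values were above 0. The 4 were Kcnj8 (-0.85), Vtn (-0.79), Pdgfrb (-0.57) and Cspg4 (-0.45). Kcnj8, a potassium channel gene of pericytes, passed in all 6 fits without a library. The endothelial count was 0 without sorafenib_plx3397 replicate 1 and 1 to 3 without each of the other libraries. The pericyte count was 4 without sorafenib_plx3397 replicate 2 and 1 to 2 without each of the other libraries.

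**Figure D4:**
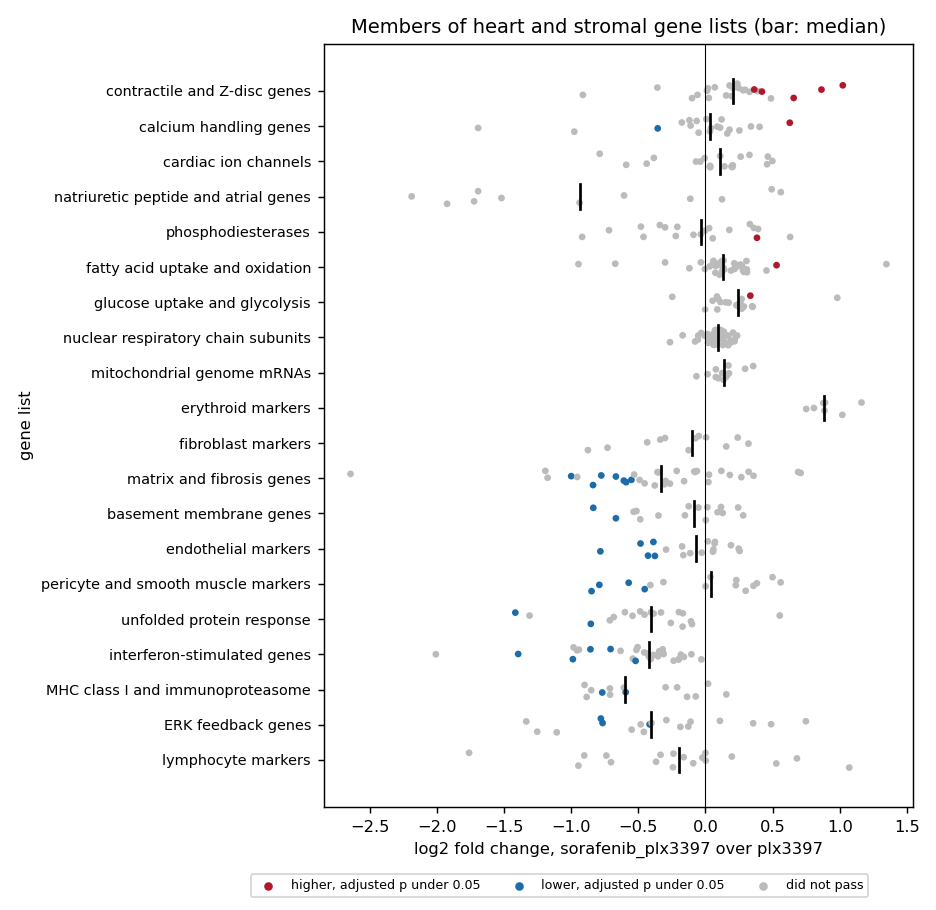
Each point is 1 gene of a list on its row, placed by the log2 fold change of sorafenib_plx3397 over plx3397, in red or blue where the adjusted p was under 0.05 and in grey otherwise, and the bar is the list's median. Contractile genes hold 5 red points to the right, matrix, vessel and interferon lists hold blue points to the left, and the erythroid list (median 0.89) holds grey points to the right.

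Of 12 genes of kinases that sorafenib blocks, Kdr and Pdgfrb fell (against 2.23% of all genes) and 0 rose. Neither passed without sorafenib_plx3397 replicate 1, sorafenib_plx3397 replicate 3 or plx3397 replicate 3. ERK feedback genes, transcribed when the RAF to ERK pathway is active, gave 3 falls among 18 (against 2.23% of all genes), with a median of -0.41, or -0.25 with limma on FPKM. Dusp6, the ERK phosphatase gene, had 10.8, 12.8 and 11.0 CPM with both agents, against 21.3, 17.3 and 20.2 CPM with PLX3397 (-0.77 ± 0.12, adjusted p = 0.00433). Its groups were apart, and it passed in all 6 fits without a library. Spry4 (-0.78 ± 0.16, adjusted p = 0.0204) and Spred1 (-0.42 ± 0.08, adjusted p = 0.0146), both inhibitors of the pathway, also fell. Spry4 passed in 1 and Spred1 in 2 of those fits, and the list had 1 call without sorafenib_plx3397 replicate 1, sorafenib_plx3397 replicate 3 or plx3397 replicate 3. Among the receptors that PLX3397 blocks and their ligands, Csf1r fell, and Kit (-0.11), Flt3 (-2.09), Csf1 (0.05), Il34 (-0.46), Kitl (0.12) and Flt3l (0.27) did not pass.

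Few genes of the metabolic and stress lists passed the test, which 1.01% of all genes passed as higher and 2.23% as lower. Slc27a1, a fatty acid transporter gene, was the 1 riser of 36 genes of fatty acid uptake and oxidation (0.53 ± 0.12, adjusted p = 0.0310), and the aldolase gene Aldoa the 1 riser of 21 of glucose uptake and glycolysis (0.33 ± 0.08, adjusted p = 0.0445). Slc27a1 passed in 2 of the 6 fits without a library and Aldoa in 0. None of 51 nuclear respiratory chain genes, 13 mitochondrial mRNAs, 25 ribosomal protein genes or 14 p53 targets was called. The median of the nuclear respiratory chain genes was 0.09, and -0.02 with limma on FPKM. Of the 22 genes of serine synthesis and the integrated stress response, Ddit3 rose (0.61 ± 0.13, adjusted p = 0.0219), a call that no fit without a library kept. Of 19 genes of the unfolded protein response, Sdf2l1 (-1.42 ± 0.30, adjusted p = 0.0273) and Hyou1 (-0.85 ± 0.19, adjusted p = 0.0323) fell, with a median of -0.41 and 18 values below 0. In 14 of the 19 the groups did not overlap, with the value lower with both agents, against 11.5% of all genes, and Sdf2l1 and Hyou1 each passed in 1 of those fits. The small heat shock protein gene Hspb7 rose (0.74 ± 0.15, adjusted p = 0.0177), as did the antioxidant genes Gstm1 (0.33) and Cat (0.39), the last encoding catalase. Hspb7 passed in 3, Cat in 1 and Gstm1 in 0 of those fits.

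Of 18 FOXO and muscle atrophy genes, 2 rose (against 1.01% of all genes) and 1 fell (against 2.23%), with a median of 0.28. Foxo3, a transcription factor that insulin signalling holds out of the nucleus, had 101, 83.1 and 88.2 CPM with both agents, against 45.1, 55.9 and 51.4 CPM with PLX3397 (0.84 ± 0.09, adjusted p = 0.000336). Igf1r, the receptor of insulin-like growth factor, had 19.3, 19.4 and 20.7 CPM with both agents, against 11.2, 12.8 and 12.2 CPM with PLX3397 (0.71 ± 0.12, adjusted p = 0.00596). Both genes kept the groups apart and passed in all 6 fits without a library. The ligand gene Igf1 fell (-0.68 ± 0.16, adjusted p = 0.0353), a call that none of those fits kept. The glucocorticoid-responsive gene Klf9 rose (0.43 ± 0.08, adjusted p = 0.0118), in 5 of those fits. It was the 1 called of 14 such genes (against 3.23% of all genes), whose median was 0.31, with 9 values above 0 and 5 below. In 25 genes of cholesterol and fatty acid synthesis, Sqle (-0.90 ± 0.20, adjusted p = 0.0255) and Insig1 (-0.60 ± 0.13, adjusted p = 0.0243) fell (against 2.23% of all genes), with a median of -0.24. Neither passed without sorafenib_plx3397 replicate 1 or plx3397 replicate 1.

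The same drug contrast without PLX3397, sorafenib against ctrl, was set beside these values. It uses 6 other libraries, so the pair of contrasts shares no library, though both come from a fit with a common estimate of spread. Without PLX3397, 500 of 18897 genes were called (2.65%), 284 higher (1.5%) and 216 lower (1.14%). That split turned with limma on FPKM, to 96 higher and 758 lower genes, and when the fit held no libraries but these 6, to 182 higher and 278 lower. The Wald test of DESeq2 called 1701 of 16125 genes (10.5%), 927 higher (5.75%) and 774 lower (4.8%). The contrasts shared 192 called genes, 31.4% of the 611 and 38.4% of the 500, of which 59 were higher in both and 133 lower in both. Genes that fell without PLX3397 had a median of -0.83 in the PLX3397 background and -0.99 without it, and 133 of the 216 (61.6%, against 2.23% of all genes) also fell in that background. Genes that rose without PLX3397 had a median of 0.30 in the PLX3397 background and 0.57 without it, and 59 of the 284 (20.8%, against 1.01% of all genes) also rose in that background. Because these genes were chosen by their calls without PLX3397, the medians there are of selected values. Across all 18897 tested genes, the fold changes of both contrasts had a Pearson r of 0.27, and across the 10791 genes of at least 1 FPKM it was 0.49. Genes are not independent replicates, and the libraries of both contrasts were scaled and fitted together. The count without PLX3397 ranged from 27, without sorafenib replicate 1, to 1422, without ctrl replicate 1.

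Ciart had a value of 3.25 with PLX3397 in both groups and 1.46 ± 0.28 without PLX3397, and Arntl had -2.41 and -1.31 ± 0.27 in the same order. Folr2 had -3.76 with PLX3397 and -2.17 ± 0.42 without, and Cyp1a1 had 2.5 with PLX3397 and 3.81 ± 0.33 without. Ciart and Folr2 were extreme with PLX3397, so their values there are of selected genes. Clock genes had medians of 0.84 with PLX3397 and 0.69 without. Macrophage markers had -1.45 and -1.10, and cell division genes -1.37 and -0.92. Without PLX3397, 11 of 19 clock genes rose (against 1.5% of all genes) and 2 fell. There 16 of 30 macrophage markers and 9 of 35 cell division genes fell (against 1.14%). The interaction, the difference between the sorafenib effects with and without PLX3397, was 1.79 ± 0.39 for Ciart, -1.10 ± 0.39 for Arntl, -1.59 ± 0.61 for Folr2 and -1.31 ± 0.43 for Cyp1a1, each with an adjusted p of 0.822. For Clock it was -0.62 ± 0.21 and for Myom2 0.67 ± 0.19, again with an adjusted p of 0.822. By edgeR's quasi-likelihood test, 0 genes (0%) passed for the interaction, with a smallest adjusted p of 0.530 and 1099 genes at an unadjusted p under 0.05. With the Wald test of DESeq2, 5 genes passed (0.0166%), 2 higher (0.00663%) and 3 lower (0.00994%), named here after their values were seen as Alpl, Gm14434, Rhox2h, Gm12758 and Gm20507. Of these, Alpl, the alkaline phosphatase gene, had an interaction of -0.65 ± 0.14 (adjusted p = 0.0475). A difference between the backgrounds was thus not shown for the clock, macrophage or cell division genes, which does not show that they respond alike.

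**Figure D5:**
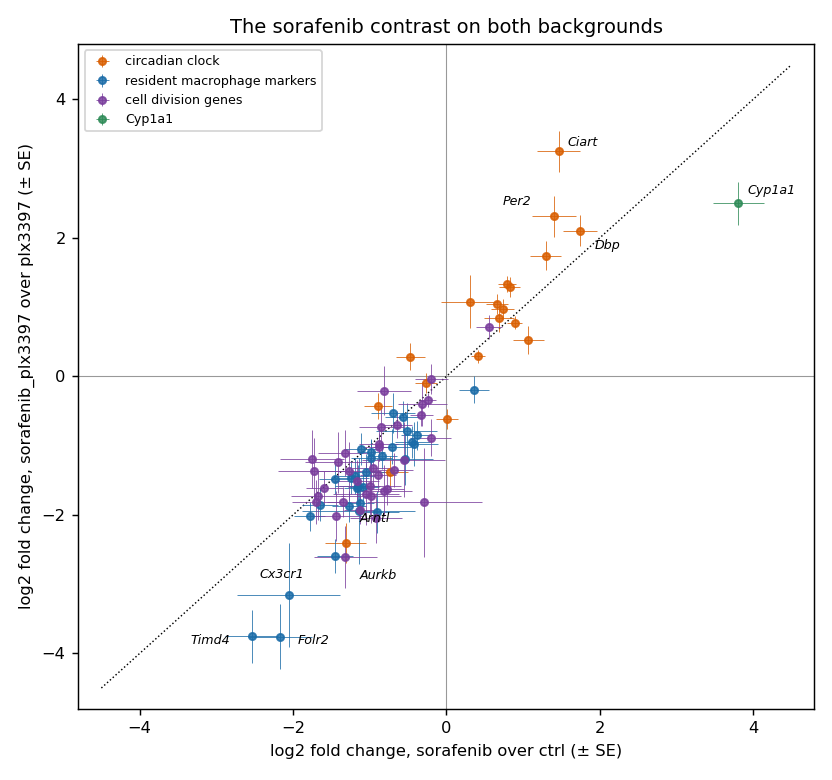
Log2 fold change ± SE of clock genes, resident macrophage markers, cell division genes and Cyp1a1 for sorafenib over ctrl on the horizontal axis and for sorafenib_plx3397 over plx3397 on the vertical axis, with the line of equal change dotted. Most points lie in the same quadrant for both contrasts, with Ciart (1.46, 3.25) above the line and Folr2 (-2.17, -3.76) and Cyp1a1 (3.81, 2.5) below it, and no difference from the line passed the interaction test of edgeR.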

How the data were processed

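Per the file headers, the deposited table gave each gene an estimated count and an FPKM value per library, and mm10 is the build in the submitters' processing notes. Those notes name DESeq2 and edgeR without versions. Not given in the sources used here are the aligner, the counter and whether counting used strand, so overlapping and antisense genes are uncertain. The deposited estimated counts were whole numbers that piled up at multiples of 4 (12143 values of 4, 5303 of 3), and what 1 count stands for is unknown. The FPKM values, scaled for length and depth by the authors, were used for levels and for limma 3.58.1 (pseudocount 0.5).

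Groups came from sample titles. Counts passed filterByExpr (minimum 10, total 15), were scaled by TMM and fitted with edgeR 4.0.16 in R 4.3.3 (robust quasi-likelihood, 1 mean per group, 12 libraries), with Benjamini-Hochberg adjustment over all genes. Tests were two-sided, and the SE was derived from the F statistic. Depth was near equal, and precision is limited by 3 libraries per group. Alternatives were other filters, DESeq2 1.42.0 (size factors, Wald test), counts divided by 4, removal of mitochondrial genes, only the groups compared, the replicate number as a block, a fold limit of 1.5 and each library left out with the filter rerun. Named genes were 13 fixed ones (Arntl, C1qa, Cd68, Col1a1, Csf1r, Cyp1a1, Dbp, Adgre1, Myh7, Nppa, Pde2a, Nppb, Postn), the 12 largest rises and falls among called genes of at least 1 FPKM without overlap, and up to 6 called members of smallest p per list. Others were chosen after their values were seen. The comparison, the lists and their members were chosen with earlier results of these data known, and no set test was run. Some members of the lists are not reported here by name.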

Additional observations from a re-analysis of the deposited data

How the results depend on the processing

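For sorafenib with PLX3397 against PLX3397, 1192 genes were called with the Wald test of DESeq2 and 45 with a fold limit of 1.5, and 177 to 391 without single libraries. For sorafenib against control, 772 were called with the stricter filter, 1701 with DESeq2, 854 with limma on FPKM, 912 with counts divided by 4, 9 with the fold limit and 27 to 1422 without single libraries. For the interaction, DESeq2 called 5 genes, and 0 to 2 were called without single libraries. They were Mbp without plx3397 replicate 1, Gm10241 and Smt3h2-ps4 without sorafenib replicate 2, and Col3a1 and Phc3 without sorafenib_plx3397 replicate 1. The remaining alternatives left each count within 1.5 times, apart from the block.

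Deviations of libraries with the same replicate number correlated at -0.03, -0.04 and -0.01 between sorafenib_plx3397 and plx3397. These values gave no sign of pairing by number but cannot exclude it. With the replicate number as a block, 433 genes were called for sorafenib with PLX3397 against PLX3397 and 221 for sorafenib against control. With only the groups compared and the replicate block, an alternative added after seeing the data, 124 and 584 were called. With only the groups compared and no block, 487 and 460 were.

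Of the 611 genes, 131 were called in all 15 alternatives of the filter, scaling, model and libraries other than the fold limit and the fit added later. Without single libraries the log2 fold change ranged from -0.22 to 0.041 for Nppb and from -0.18 to 0.10 for Pde2a, and neither was called. It was 0.041 for Nppb and 0.10 for Pde2a without plx3397 replicate 1 and 0.026 for Pde2a without plx3397 replicate 2, of opposite sign to the main values. The cause of these shifts was not tested. Fits that left out a library had fewer samples and a new set of tested genes. Medians of the NRF2, adipocyte, adrenergic, calcium handling, ion channel, respiratory chain, pericyte and ribosomal lists turned negative with limma on FPKM, and that of the adipocyte list also with counts divided by 4. With limma on FPKM the median of all tested genes also went down, from -0.003 to -0.066. Genes under 1 FPKM gave 15 of the 190 higher and 162 of the 421 lower calls, where few counts limit precision.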
